A study of Mus musculus with 2 samples.

Results

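Potassium channels are described here through the 94 protein-coding genes whose symbols begin with Kcn and a lower-case letter in GENCODE release M21, all matched by Ensembl identifier to the 37315 identifiers counted. The lung RNA of C57BL/6 mice (an inbred strain) was poly(A)-selected and sequenced as 1 control library and 1 library from exposure to PM2.5, fine airborne particulate matter. Both titles carry 12W, which the labels do not explain, and no age, sex, dose, route or number of animals per library is stated in them. The control library holds 62788045 counts and the PM2.5 library 57435027, and every marker list for lung epithelium, endothelium and mesenchyme was detected in both libraries, with no marker at 0. Levels are CPM, the count divided by the TMM-scaled library size. With 1 library a group there is no replicate check: a ratio is PM2.5 over control with a 95% exact interval (the Clopper-Pearson method, applied to the share of counts) for counting error only, and it describes these libraries, not the exposure. A gene is called higher or lower where the ratio reaches 1.5-fold and its interval leaves out equality.

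Potassium channels let potassium leave or enter a cell along its gradient and so set the resting membrane potential. Voltage-gated channels open on depolarisation, calcium-activated ones on a rise of calcium, inward rectifiers pass current best near the resting potential, and two-pore-domain channels carry a background leak. In lung these currents govern the tone of pulmonary arteries and airways, drive chloride and fluid secretion by epithelium, and shape the calcium signals of immune cells. Auxiliary subunits, which form no pore themselves, tune the gating and transport of the pore-forming ones.

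The sequence that defines a pore is the selectivity filter, where backbone oxygens replace the water around a potassium ion. Coding bases for it are shown for 6 members, chosen to cover the pore-forming and silent classes, read 5′ to 3′ from the GENCODE M21 transcript with the longest coding sequence. Capitals mark the 15 bases of the 5 signature codons (serine or threonine, a branched residue, glycine, an aromatic residue or leucine, glycine), with 12 bases on either side.
Kcnk3, first pore: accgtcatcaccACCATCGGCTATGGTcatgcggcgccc
Kcnk3, second pore: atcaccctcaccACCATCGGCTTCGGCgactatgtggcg
Kcnj2: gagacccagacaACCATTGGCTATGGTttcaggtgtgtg
Kcna2: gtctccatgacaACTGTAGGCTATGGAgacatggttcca
Kcnh2: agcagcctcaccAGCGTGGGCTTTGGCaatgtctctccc
Kcnn1: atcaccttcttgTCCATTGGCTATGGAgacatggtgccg
Kcnf1: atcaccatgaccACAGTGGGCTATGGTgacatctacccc

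All 77 members of the pore-forming and electrically silent classes carried this signature in their coding sequence, against 0 of 17 auxiliary or regulatory members and 0.996% of 21392 other protein-coding genes. Two-pore-domain genes held it in both pore loops in 12 of 14 cases. Kcnk1 and Kcnk7 matched once. The signature is that of the selectivity filter, and the classes separate pore-forming from auxiliary genes, so this split was largely fixed in advance. It is a description of the classes and no check of them. The grouping by name was made after the files were read, and the results below follow those classes.

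Of the 94 genes, 46 reached a mean of 1 CPM and are called measured. In the PM2.5 library 8 of them were called higher, or 17.4%, and 14 lower, or 30.4%. Over all 14518 measured genes 14.9% were called higher and 19.1% lower, and over the 13792 that code for protein 13.3% and 19.6%. The share of channel genes called higher was thus near the background and the share called lower was above it under the scaling used here. Beside these counts, the list of brown and white fat markers had summed levels of 74.5 CPM (control) and 538 CPM (PM2.5), with 8 of 8 called higher, and the fibroblast list 4741 and 1983 CPM, with 2 of 8 higher and 5 lower. The part of either in the channel counts was not tested. The remaining 24 met neither size: the interval of 14 included equality, 3 lay above it and 7 below. At 2-fold, 4 were higher and 6 lower, against backgrounds of 7.25% and 6.04%. The median log2 ratio was -0.14 over measured channel genes, -0.09 over all measured genes and -0.11 over protein-coding ones. With library totals as the scaling every log2 ratio is shifted up by 0.23. The median then becomes 0.09, the higher calls 10 and the lower calls 9. Background shares are not given for library totals or the other alternatives, so an excess of lower calls is not shown there. Only 2 measured members, Kcne3 and Kcnh7, were below 1 CPM in the control library, and 2, Kcnab3 and Kcng1, below it in the PM2.5 library.

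**Figure D1:**
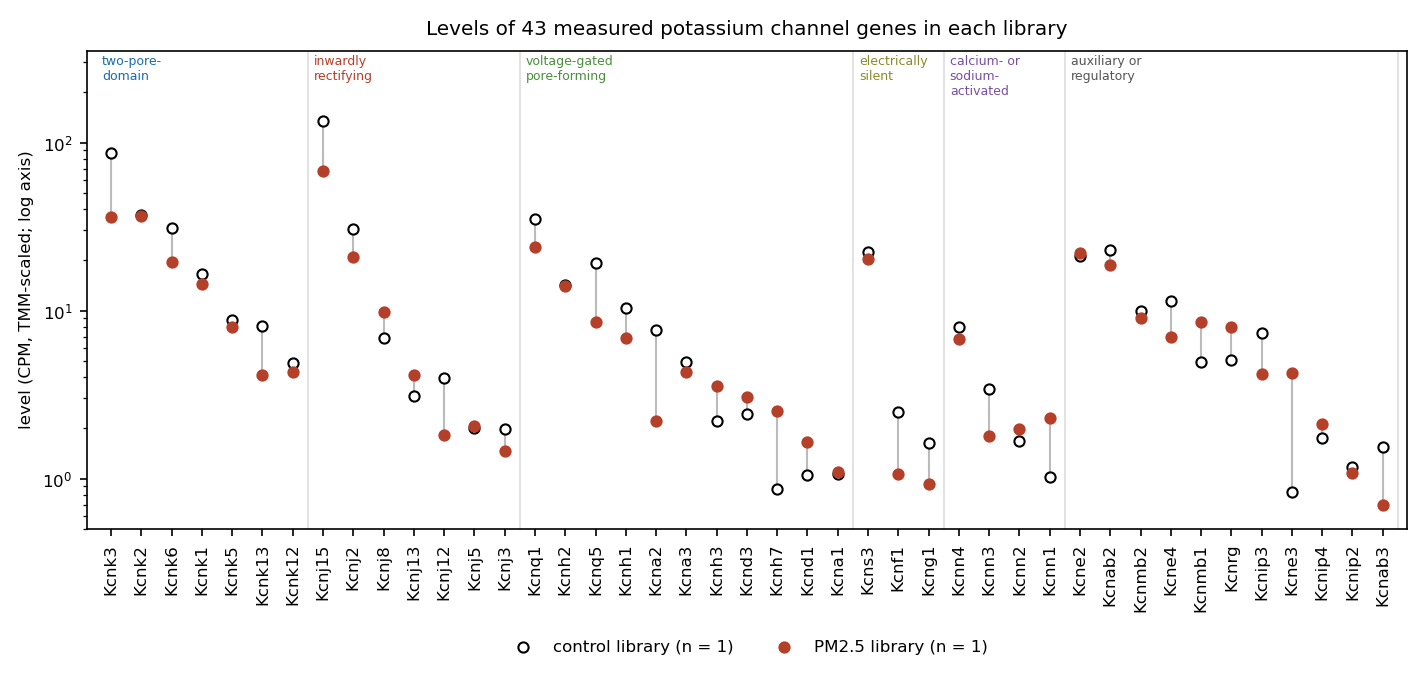
Level of 43 of the 46 measured potassium channel genes (CPM, log axis) in the control library (open) and the PM2.5 library (filled), grouped by class, 1 library each. Kcnj15 and Kcnk3 stand highest in the control library at 135 and 86.4 CPM, and both are lower in the PM2.5 library, at 67.7 and 36.2 CPM.

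The lung message for potassium channels was concentrated in few genes. Kcnj15 and Kcnk3 together made 34.2% (control) and 23.4% (PM2.5) of the summed CPM of all 94 genes, and the leading 10 genes made 68.3% and 63.0%. The summed level was 649 CPM (control) and 498 CPM (PM2.5), a ratio of 0.767 (0.756 to 0.779). Without Kcnj15 and Kcnk3 the sums were 428 and 394 CPM, a ratio of 0.922 (0.906 to 0.938), so these genes held most of the difference. Under this scaling the summed CPM of all genes had a ratio of 0.853, so the sum without Kcnj15 and Kcnk3 was above that background. As a share of all counts the 94 genes made 0.0599% (control) and 0.0539% (PM2.5). Per kilobase of annotated exon, the scale on which genes can be compared, Kcnk3 (21.7 CPM per kilobase) and Kcnj15 (21.4) led the control library ahead of Kcne2 (11.9) and Kcnq1 (8.55). In the PM2.5 library the leading genes were Kcne2 (12.4), Kcnj15 (10.7) and Kcnk3 (9.11).

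Two-pore-domain genes encode the leak channels that hold cells near the potassium equilibrium potential. Kcnk3 encodes an acid-sensitive leak channel of pulmonary arterial smooth muscle, and loss-of-function variants of it cause heritable pulmonary arterial hypertension in people. Kcnk3 (ENSMUSG00000049265, GRCm38 chromosome 5, plus strand) had 5011 counts (control) and 2253 counts (PM2.5), a level 2.39-fold lower (2.27 to 2.51). Its exons overlap by 229 nt those of Gm9899 on the other strand, which had 12 and 17 counts, and its filter sequences are shown above. Kcnk13, a halothane-inhibited channel best known from microglia, had 472 and 256 counts and was 1.98-fold lower (1.70 to 2.31). Kcnk6, a weak inward rectifier found in vessels and in macrophages, had 1795 and 1211 counts and was 1.59-fold lower (1.48 to 1.71), a call that library totals (1.36-fold), upper-quartile scaling (1.45-fold) and removal of the length trend (1.47-fold) each end.

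The other measured leak channel genes met neither size. The mechanically gated channel gene Kcnk2 had 2147 and 2258 counts, a ratio of 0.980 (0.924 to 1.04). Kcnk1 had 949 and 890, Kcnk5, whose channel is sensitive to alkaline pH and serves epithelial transport, 509 and 499, and Kcnk12 283 and 267, with ratios of 0.874 to 0.914. None of the 7 measured genes was called higher, with library totals included, and 3 were called lower. Over all measured genes the shares were 14.9% higher and 19.1% lower. The 4 that met neither size had log2 ratios of -0.19 to -0.03 here and of 0.04 to 0.20 with library totals, so they carry no direction. Per kilobase of exon, Kcnk2 stood at 7.49 (control) and 7.34 (PM2.5) CPM and Kcnk3 at 21.7 and 9.11. The class sum was 193 CPM (control) and 124 CPM (PM2.5), and without Kcnk3 107 and 87.9 CPM.

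Lung pericytes and smooth muscle are the textbook sites of Kcnk3 in the vessel wall. The pericyte list had summed levels of 950 CPM (control) and 395 CPM (PM2.5), with 5 of 7 markers called lower. Among them Pdgfrb had 249 and 76.0 CPM and Notch3 193 and 63.7 CPM, while Higd1b (30.2 and 25.4 CPM) and Cox4i2 (52.7 and 43.1 CPM) met neither size. The smooth muscle list stood at 727 and 957 CPM, with 3 of 8 markers higher and 1 lower, and the endothelial list at 7468 and 3484 CPM, with 8 of 10 lower. The part of these markers in the Kcnk3 value was not tested. In whole tissue, fewer cells of a type and less RNA per cell cannot be told apart.

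Inwardly rectifying genes encode channels of 4 subunits that stabilise the resting potential, among them those gated by ATP and by G proteins. Kcnj15 (ENSMUSG00000062609, chromosome 16, plus strand), which encodes an inward rectifier of epithelia such as kidney, was the most abundant member before allowance for length. It had 7844 and 4214 counts, a level 2.0-fold lower (1.92 to 2.07). An antisense gene, Gm49643, overlaps 333 nt of its exons and was not analysed here. Kcnj12, a strong inward rectifier of muscle, had 230 and 113 counts and was 2.18-fold lower (1.74 to 2.76). Its relative Kcnj2, the strong rectifier of endothelium and heart, had 1762 and 1291 counts and was 1.46-fold lower (1.36 to 1.57), short of the size for a call.

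Kcnj8 encodes the pore of the vascular ATP-sensitive channel, and its partner Abcc9, the sulphonylurea receptor, lies 16.2 kb away on chromosome 6. Kcnj8 had 400 and 613 counts, a ratio of 1.43 (1.26 to 1.62), and would be called higher with library totals (1.68) or upper-quartile scaling (1.57). Abcc9 had 925 and 735 counts, a ratio of 0.741 (0.671 to 0.817). Pore and receptor thus lay on opposite sides of equality under the scaling used here, neither past the size for a call. The pancreatic pair Kcnj11 and Abcc8, 3.76 kb apart on chromosome 7, was rare, with 38 and 37 counts for the pore and 57 and 37 for the receptor.

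Kcnj3 and Kcnj5 encode the G protein-gated channel of atrial muscle and were near 2 CPM. Kcnj3 had 114 and 91 counts, a ratio of 0.744 (0.559 to 0.989), and Kcnj5 had 116 and 127, a ratio of 1.02 (0.787 to 1.32). The cardiomyocyte list stood at 393 and 418 CPM, with 5 of 9 markers called higher, 1 lower (Myh6, 164 and 62.7 CPM) and a median log2 ratio of 0.71, and its part in these values was not tested. Kcnj13, a rectifier of transporting epithelia, had 181 and 257 counts, a ratio of 1.32 (1.09 to 1.61), but it lies within Gigyf2, whose exons overlap it by 623 nt on the opposite strand and had 4136 and 3511 counts. The strand setting of the counting is not given in the sources used here, so the reads of the pair cannot be told apart. In all, 2 of 7 measured inward rectifiers were called lower and none higher, against 19.1% and 14.9% of all measured genes. Kcnj8 and Kcnj13 (1.55) would be called higher with library totals. The class sum was 186 CPM (control) and 110 CPM (PM2.5), and without Kcnj15 50.4 and 42.4 CPM.

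**Figure D2:**
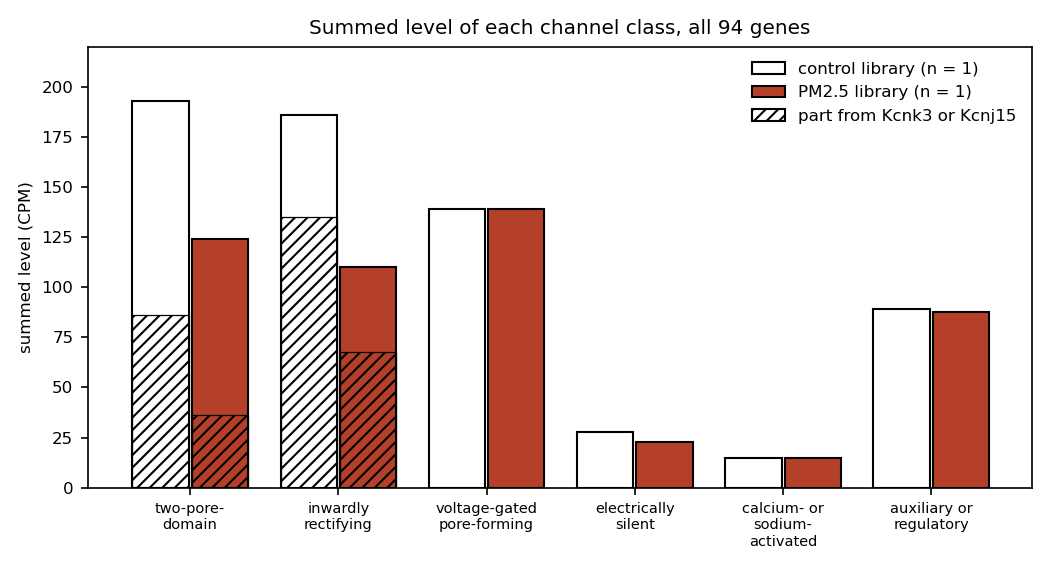
Summed level (CPM) of all 94 genes by channel class in the control library (white) and the PM2.5 library (red), with the part from Kcnk3 or Kcnj15 hatched, 1 library each. The two-pore-domain and inwardly rectifying sums are lower in the PM2.5 library (193 to 124 and 186 to 110 CPM), and the voltage-gated sum is 139 CPM in both. Under this scaling the summed CPM of all genes has a ratio of 0.853.

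Voltage-gated pore-forming genes lay on both sides of equality, and their sum was 139 CPM in each library, a ratio of 1.0 (0.970 to 1.03). The ratio of the summed CPM of all genes was 0.853. Of 14 measured genes, 4 were called higher and 3 lower, against 14.9% and 19.1% of all measured genes. Kcna2, a Shaker-type channel of nerve and vascular muscle, had the lowest ratio of the measured members. It had 446 and 137 counts, from 7.69 to 2.20 CPM, a level 3.49-fold lower (2.88 to 4.26). Its neighbour Kcna3, 63.1 kb away on chromosome 3 and known for setting the membrane potential of T cells, had 286 and 269 counts, a ratio of 0.877 (0.739 to 1.04). Kcna10, 68.1 kb away, had no count, so nothing can be compared there. The T cell list, beside Kcna3, stood at 92.4 and 92.5 CPM.

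Genes of the Kcnq group encode slowly activating channels of epithelium, heart and vessel. Kcnq5 had 1114 and 529 counts and was 2.26-fold lower (2.04 to 2.51). Kcnq1, the pore that carries basolateral potassium recycling in secretory epithelium, had 2030 and 1488 counts and was 1.46-fold lower (1.37 to 1.57), not a call. Antisense genes overlap Kcnq5 (Gm26580, 237 nt) and Kcnq1 (Kcnq1ot1) and were not analysed here. Kcnq3, a neuronal subunit of the M-current, had 1 and 0 counts.

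Shaw-type channels close rapidly and support fast firing in neurons. Among their rare genes Kcnc1 (26 and 67 counts) and Kcnc2 (12 and 31 counts) were higher, at 2.40 (1.51 to 3.94) and 2.41 (1.20 to 5.15), while Kcnc4 had 22 and 16.

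The ether-a-go-go genes were mixed. Kcnh2, the channel that repolarises the heart, had 822 and 871 counts, a ratio of 0.988 (0.897 to 1.09). Kcnh1 had 601 and 424 counts and was 1.52-fold lower (1.34 to 1.73), a call that library totals (1.30-fold lower), upper-quartile scaling (1.38-fold) and removal of the length trend (1.20-fold) each end. Kcnh3 had 128 and 221 counts, a ratio of 1.61 (1.29 to 2.02). Kcnh7 had 50 and 157 counts, a ratio of 2.93 (2.12 to 4.11), and passed the filter on level only through the PM2.5 library. Its exons overlap by 696 nt those of Gca on the opposite strand. Gca, the gene of the neutrophil protein grancalcin, had 650 and 861 counts, a ratio of 1.23 (1.11 to 1.37), and the neutrophil list stood at 485 and 1600 CPM with 7 of 7 markers higher. The part of either in the Kcnh7 value was not tested.

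Measured genes of lower level included Kcnd1, Kcnd3 and Kcna1, with 1.05 to 3.07 CPM in a library. Kcnd1 had 61 and 102 counts, a ratio of 1.56 (1.12 to 2.18), and Kcnd3, the pore of the transient outward current, 140 and 191, a ratio of 1.27 (1.02 to 1.59), which is 1.60 and a call with the length trend removed. Kcna1, a Shaker-type channel of nerve, had 62 and 68 counts, a ratio of 1.02 (0.714 to 1.47).

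Electrically silent subunits make no channel alone but join Kcnb subunits and change their gating. Kcnf1 had 144 and 66 counts and was 2.34-fold lower (1.74 to 3.18), and Kcng1 had 94 and 58 and was 1.74-fold lower (1.24 to 2.46), or 1.48-fold and not a call with library totals. Kcns3, a subunit of an oxygen-sensitive current in pulmonary artery muscle, was far more abundant, at 1292 and 1260 counts for a ratio of 0.909 (0.840 to 0.983). Of 3 measured silent subunits 2 were thus called lower, against 19.1% of all measured genes, and 3 genes are too few to set the shares apart. Kcng1 passed the filter on level only through the control library.

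Among calcium-activated genes, Kcnn4, the intermediate-conductance channel of lymphocytes, macrophages and secretory epithelium, was the most abundant, at 464 and 421 counts for a ratio of 0.846 (0.739 to 0.967). Kcnn1 and Kcnn3, which encode small-conductance channels gated by calmodulin, differed in opposite directions. Kcnn1 had 59 and 143 counts, a ratio of 2.26 (1.66 to 3.11), and Kcnn3, the endothelial form, 197 and 111, 1.90-fold lower (1.5 to 2.43). With the length trend removed Kcnn3 is 1.48-fold lower, which ends the call. Beside Kcnn3, 8 of 10 endothelial markers were called lower, while Cldn5 (0.742) and Egfl7 (1.26) met neither size, and their part was not tested. Kcnn2 had 97 and 123 counts and met neither size. Kcnma1, the pore of the large-conductance channel of smooth muscle, was rare, with 21 and 41 counts.

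**Figure D3:**
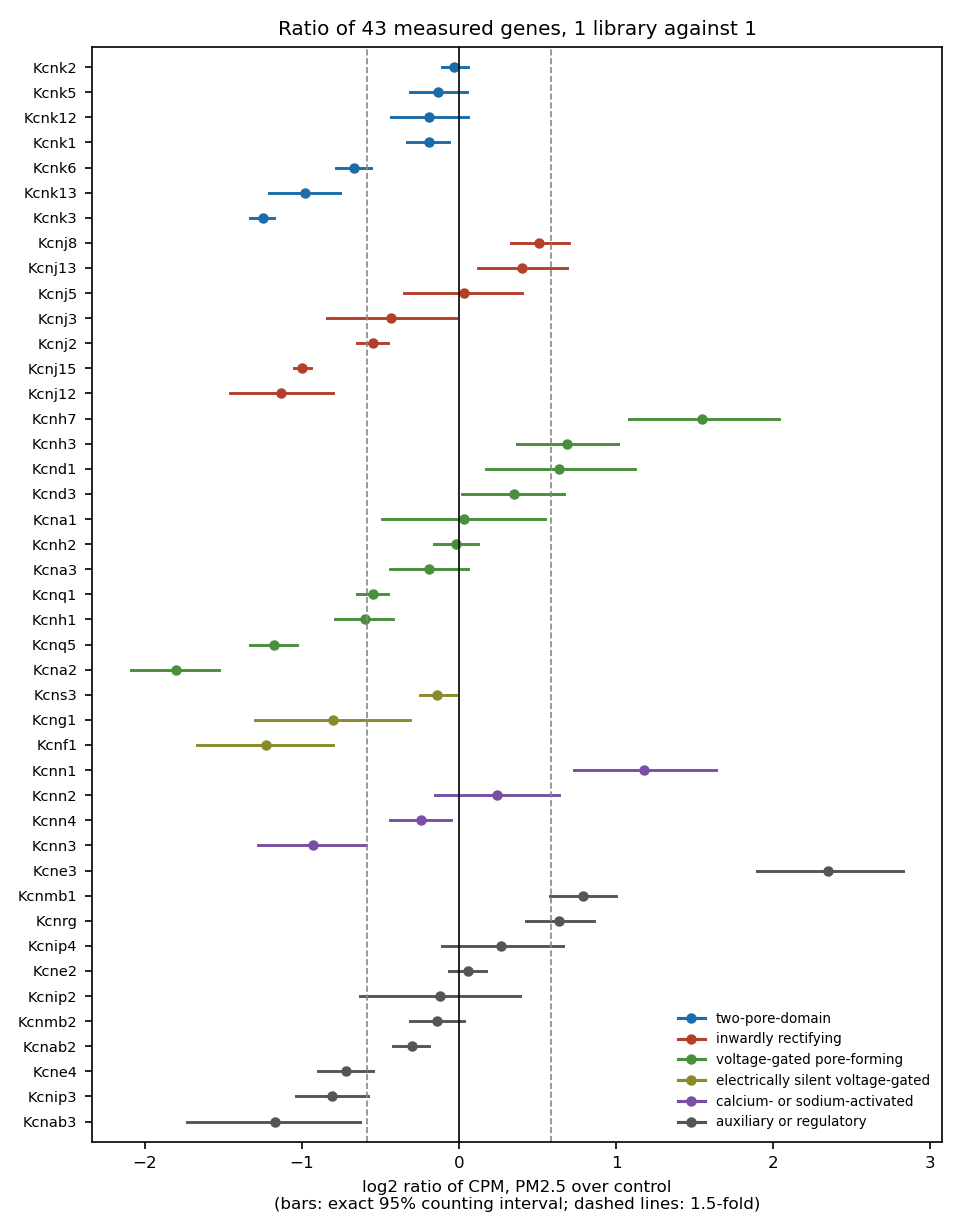
Log2 ratio of CPM, PM2.5 over control, for 43 of the 46 measured genes, coloured by class, with exact 95% counting intervals as bars and 1.5-fold as dashed lines, from 1 library against 1. Kcne3 lies farthest to the right at 2.35 and Kcna2 farthest to the left at -1.80, and no two-pore-domain or silent gene lies to the right of equality, though with library totals Kcnk1, Kcnk12, Kcnk2, Kcnk5 and Kcns3 would, at 0.04 to 0.20.

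Auxiliary and regulatory genes had summed levels of 89.0 and 87.6 CPM. Of 11 measured genes 3 were called higher and 3 lower, against 14.9% and 19.1% of all measured genes. Kcne3 (ENSMUSG00000035165, chromosome 7, plus strand) had the highest ratio of all measured members. Its single-pass protein binds the Kcnq1 pore and keeps it open at rest in intestinal and airway epithelium. It had 48 and 263 counts, from 0.828 to 4.23 CPM, a ratio of 5.11 (3.74 to 7.10), and it passed the filter only through the PM2.5 library.

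No other measured subunit of that family was called higher. Kcne2, which also assembles with Kcnq1 and Kcnh2, had 1222 and 1363 counts, a ratio of 1.04 (0.962 to 1.12). Its neighbour Kcne1, 47.9 kb away on chromosome 16 and the cardiac partner of Kcnq1, had no count in either library, which allows up to 0.0517 CPM (control) and 0.0482 CPM (PM2.5). Kcne4, an inhibitory subunit, had 662 and 430 counts and was 1.65-fold lower (1.46 to 1.87), or 1.41-fold and not a call with library totals. The CPM of Kcne3 was therefore 3.93% (control) and 19.3% (PM2.5) of that of Kcne2, beside a Kcnq1 level of 35.0 and 23.9 CPM.

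Kcnmb1, the subunit that raises the calcium sensitivity of the large-conductance channel in smooth muscle, had 285 and 529 counts, a ratio of 1.73 (1.5 to 2.01). Its pore Kcnma1 also had more counts after exposure, at a ratio of 1.82 (1.05 to 3.24) on 62 counts in all. Kcnmb2, which inactivates the same channel, had 577 and 563 counts, a ratio of 0.909 (0.808 to 1.02). Beside Kcnmb1, 3 of 8 smooth muscle markers were called higher, among them Tagln (137 and 278 CPM) and Acta2 (182 and 292 CPM). Myocd (1.54 and 0.997 CPM) was called lower, and 4, among them Myh11 (168 and 119 CPM), met neither size. The part of these markers was not tested.

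The cytoplasmic beta subunits of voltage-gated channels were led by Kcnab2, at 1335 and 1161 counts for a ratio of 0.811 (0.749 to 0.878). Kcnab3 was rare, with 90 and 43 counts, 2.25-fold lower (1.54 to 3.31), and Kcnab1 had 24 and 88 counts below a mean of 1 CPM, a ratio of 3.42 (2.16 to 5.61). Calcium-binding partners of the Kcnd pores were led by Kcnip3, which also acts as a transcriptional repressor, with 428 and 262 counts, 1.75-fold lower (1.5 to 2.05), or 1.49-fold and not a call with library totals. Kcnip4 (101 and 131 counts) and Kcnip2 (68 and 67 counts) had intervals that include equality. Kcnrg, a soluble protein that suppresses voltage-gated channels, had 294 and 493 counts, a ratio of 1.56 (1.35 to 1.81), which is 1.39 and no longer a call with the length trend removed.

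The 48 members below a mean of 1 CPM fall into 3 groups. Of 21 with at least 20 counts, 10 were called higher and 0 lower, or 47.6% higher. Among 1504 protein-coding genes in the same range 44.1% were higher and 11.4% lower, so the rare channel genes had a share of higher calls near that of rare genes in general. The 10 were Kcna6 (24 and 48 counts), Kcnj1 (10 and 29), Kcnk7 (32 and 64), Kcnmb4 (20 and 39), Kcnt2 (14 and 35) and Kcnu1 (12 and 30) with Kcnab1, Kcnc1, Kcnc2 and Kcnma1 given above. The 11 that met neither size were Kcna5, an oxygen-sensitive channel of pulmonary artery muscle with 60 and 59 counts, Kcna7, Kcnb2, Kcnc4, Kcnd2, Kcng2, Kcng4, Kcnh4, Kcnh6, Kcnj10 and Kcnj11.

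A further 21 members had between 1 and 15 counts over both libraries. Kcnk4 had 0 and 14 counts, 4.35-fold higher with the 0 set at a floor of 3 counts (lower limit of the counting interval 3.09). However, 587 nt of its exons lie in those of Catsperz on the same strand. Kcna4 and Kcnk15 each had 6 and 0 counts, 2.15-fold lower with the 0 set at that floor (lower limit of the counting interval 1.26). The others included Kcne1l, Kcng3, Kcnh8, Kcnip1, Kcnj4, Kcnj9, Kcnj14, Kcnj16, Kcnk10, Kcnk16, Kcnk18, Kcnmb3, Kcnq3, Kcns1, Kcnt1, Kcnv1 and Kcnv2. Kcna10, Kcne1, Kcnh5, Kcnj6, Kcnk9 and Kcns2 had no count. The neuron and Schwann cell list stood at 78.1 and 76.1 CPM, with Nefl and Snap25 at 0 in the control library.

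Level went with the ratio across the whole transcriptome, and the channel genes can be set against genes of like level. From 1 to 10 CPM, 7 of 33 channel genes were called higher and 10 lower with a median log2 ratio of -0.12, whereas 28.9% of 3510 protein-coding genes in that range were higher, 15% were lower and the median was 0.19. At 10 CPM or more, 1 of 13 was higher and 4 lower with a median of -0.30, against 7.98% and 21.2% of 10282 genes and a median of -0.19. From 1 to 10 CPM the share of channel genes called lower was above that of protein-coding genes under the scaling used here. Of these lower calls, Kcne4, Kcng1, Kcnh1 and Kcnip3 end with library totals. Upper-quartile scaling ends that of Kcnh1, and removal of the length trend those of Kcnh1 and Kcnn3. Background shares at this level are not given for the alternatives, so the excess is not shown there. At 10 CPM or more the comparison rests on 4 of 13 genes, too few to set the shares apart. The call of Kcnk6 among them ends with library totals, upper-quartile scaling or the length trend removed. Long transcripts were lower in general, and measured channel genes had a median longest transcript of 3754 nt against 3413 nt for protein-coding genes. With the length trend removed, 8 were higher, 11 lower and the median was -0.17. Across the 46 genes, which are not independent, Spearman's rho of the log2 ratio was -0.13 with transcript length and -0.22 with mean CPM.

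**Figure D4:**
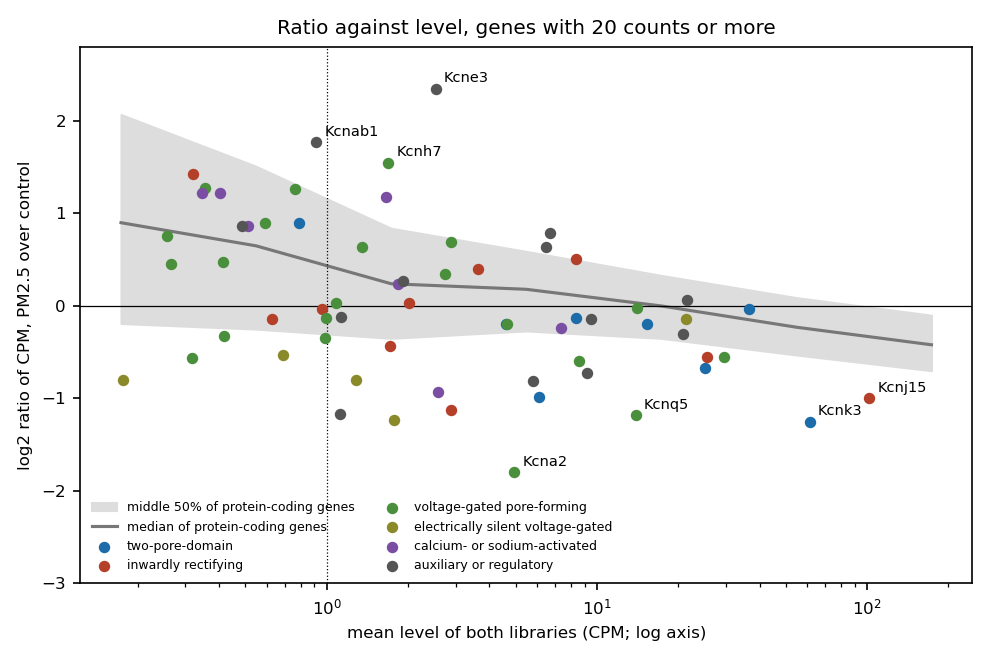
Log2 ratio of CPM against mean level (log axis) for 64 potassium channel genes with at least 20 counts, over the median and middle 50% of protein-coding genes in bins of level (grey), from 1 library against 1. Below 1 CPM the channel genes scatter around the grey median, which is above 0 there, and between 1 and 10 CPM several lie below the grey band, with Kcna2 the lowest.

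Members that are neighbours in the genome were set side by side, in 9 pairs within 100 kb. Kcnj2 (1762 and 1291 counts) lies 38.2 kb from Kcnj16 (4 and 11), Kcnk5 (509 and 499) 79.6 kb from Kcnk16 (1 and 1), and Kcnj10 (56 and 59) 11.9 kb from Kcnj9 (3 and 3). Kcna1 (62 and 68) lies 61.9 kb from Kcna6 (24 and 48), and Kcnj5 (116 and 127) 28.1 kb from Kcnj1 (10 and 29). Kcnmb1 lies inside the span of Kcnip1, which had 5 and 8 counts.

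Promoter sequence was held by RefSeq tables (GRCm38.p6) for 69 of the 94 genes. It is shown for Kcna2 and Kcne3, the measured members with the lowest and the highest ratio, and for the abundant Kcnj15, from 250 bases before to 50 after a start site on the plus strand of chr3:107101317-107101616, chr7:100176420-100176719 (the first of its listed starts) and chr16:95257308-95257607. Capitals mark motifs searched on both strands, so that some appear as the reverse complement. GGGCGG is the GC box, bound by Sp factors. The CCAAT box was searched by its own letters. TATAAA is the box that positions the start of transcription. CACGTG is the E box. The core of the element bound by the aryl hydrocarbon receptor, a sensor of combustion products, is GCGTG.
Kcna2: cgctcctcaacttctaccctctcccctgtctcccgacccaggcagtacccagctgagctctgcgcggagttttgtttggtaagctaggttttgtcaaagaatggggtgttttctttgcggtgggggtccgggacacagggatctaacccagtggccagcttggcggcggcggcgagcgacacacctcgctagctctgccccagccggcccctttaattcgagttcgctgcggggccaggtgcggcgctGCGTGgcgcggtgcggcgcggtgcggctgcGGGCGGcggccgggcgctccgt
Kcne3: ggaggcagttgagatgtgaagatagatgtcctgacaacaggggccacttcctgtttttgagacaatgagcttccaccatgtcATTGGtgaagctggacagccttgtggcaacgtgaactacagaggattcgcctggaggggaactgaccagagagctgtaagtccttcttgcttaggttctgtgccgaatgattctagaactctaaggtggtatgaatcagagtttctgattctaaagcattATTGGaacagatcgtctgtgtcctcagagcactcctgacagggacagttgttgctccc
Kcnj15: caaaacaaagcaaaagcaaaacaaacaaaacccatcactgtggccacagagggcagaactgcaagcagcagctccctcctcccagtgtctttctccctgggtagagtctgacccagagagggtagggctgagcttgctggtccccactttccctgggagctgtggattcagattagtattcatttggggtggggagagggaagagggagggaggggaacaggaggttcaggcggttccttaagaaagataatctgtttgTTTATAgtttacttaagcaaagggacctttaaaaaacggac

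The 3 promoters differ in composition. That of Kcna2 has 66.7% G and C and 31 CG pairs, with 1 GC box and 1 GCGTG. The printed window of Kcne3 has 48.3% and 4 CG pairs, with 2 CCAAT boxes. That of Kcnj15 has 49.7% and 2 CG pairs, with 1 match to the letters of the TATA box. This match reads as the reverse complement and lies after the start site, not before it. Over the 94 promoter windows of channel genes 47.9% held a GC box, 30.9% a CCAAT box, 5.32% a TATA box, 7.45% an E box and 34.0% a GCGTG, against 35.7%, 37.4%, 13.6%, 7.15% and 32.4% of all 32851 windows. The second listed start of Kcne3, not printed, has 57.7% G and C and 12 CG pairs, with 2 GC boxes, 1 GCGTG and 0 CCAAT boxes. These matches describe letters only.

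Other genes of potassium handling were counted from 2 lists. Of 12 measured channel partners, 1 was called higher and 3 lower, against 14.9% and 19.1% of all measured genes. The higher one was Dpp6, an accessory protein of the Kcnd pores (58 and 109 counts, a ratio of 1.75). The lower ones were the pacemaker channel gene Hcn2 (138 and 68 counts, 2.18-fold), Akap9, the scaffold of Kcnq1 (1.61-fold), and Tmem38b, a potassium channel of the endoplasmic reticulum (1.60-fold). Calm2 and Calm3, genes of calmodulin, which gates the Kcnn channels, had ratios of 1.14 and 0.775.

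Potassium pumps, cotransporters and their regulators had 2 of 19 measured genes higher and 6 lower, against the same 14.9% and 19.1%, and a summed level of 2908 and 1958 CPM. Atp1b1, a subunit gene of the sodium pump, which loads cells with the potassium that the channels release, was 1.59-fold lower, at 424 and 267 CPM. Atp1b2 was 3.13-fold lower (2.82 to 3.48), and the chloride-loading cotransporter Slc12a2 1.92-fold lower (1.86 to 1.98). Wnk1, the kinase that regulates such cotransporters, was 1.85-fold lower, and the potassium-chloride cotransporter gene Slc12a4 1.75-fold. The higher genes were Slc12a5, known as the cotransporter of neurons, at 78 and 289 counts for a ratio of 3.45 (2.68 to 4.49), and the pump regulator Fxyd5 at 1.66 (1.60 to 1.72).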

How the data were processed

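Counts per Ensembl gene identifier were deposited by the authors without normalization. TopHat2 2.1.1, HTSeq 0.6.0 and build mm10 are named, per the submitters' processing notes. Annotation release and strand setting: not given in the sources used here. Per the labels' protocols, the libraries were poly(A)-selected and made with a stranded kit. Here, symbols, types, positions and lengths came from GENCODE M21 (GRCm38), TMM factors (0.923 control, 1.08 PM2.5) were computed with edgeR 4.0.16, and ratios, intervals, the floor of 3 counts and the call rule were computed as the report states, after a test on simulated data. Intervals and floors cover counting error only, since PCR reads are not independent molecules. The members and all lists were chosen with earlier results of these data known. Measured members are named, except some results not reported here, the rarer ones by counts, and, of each list of other potassium genes, up to 4 a direction by the interval bound nearest to equality. Calm2, Calm3, Atp1b1, the single markers, the sequences shown, the channel classes, the protein-coding and low-count backgrounds, the split by level and the sums without Kcnk3 and Kcnj15 were chosen after values were seen. Alternatives were library totals, upper-quartile scaling, size factors from DESeq2 1.42.0, TMM without the 100 most abundant genes, thinning, a lowess length trend, and other filters and sizes. Python 3.11.15 and R 4.3.3 were used.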

Additional observations from a re-analysis of the deposited data

How the results depend on the processing

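The count of potassium channel genes called higher was 8 and of those called lower 14 under the main settings. Library totals gave 9 lower genes and a median log2 ratio of 0.09 in place of -0.14. That scaling ended the lower calls of Kcne4, Kcng1, Kcnh1, Kcnip3 and Kcnk6 and added Kcnj8 and Kcnj13 as higher. Upper-quartile scaling ended the lower calls of Kcnh1 and Kcnk6 and added Kcnj8 as higher. It gave 9 higher genes, 12 lower and a median log2 ratio of 0.00. Removal of the length trend ended the lower calls of Kcnh1, Kcnk6 and Kcnn3 and the higher call of Kcnrg, and added Kcnd3 as higher. Without a filter 19 genes were higher. At a mean of at least 10 CPM, where 13 genes are left, 1 was higher and 4 lower, at 2-fold 4 and 6, and with the interval bound beyond 1.5-fold 4 and 9. When members with 100 nt or more of exonic overlap were left out, 29 measured genes stayed, with 5 higher and 10 lower. This alternative was chosen after seeing the data. Among the genes it leaves out are Kcnh7 and Kcnn1, called higher, and Kcnk3, Kcnj15, Kcnq5 and Kcnab3, called lower. Both counts and the median stayed within 1.5 times or within counting error with DESeq2 size factors, TMM without the 100 most abundant genes, upper-quartile scaling, thinning of the deeper library, the length trend removed and a filter on the control library alone. That tolerance is wide for the median, since it takes in the 0.00 of upper-quartile scaling beside -0.14. No called member changed direction under these scalings, the thinning or the length correction. Genes with few counts are limited by depth: Kcnma1, on 21 and 41 counts, has an interval from 1.05 to 3.24. No paired analysis was possible because each group has 1 library.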
